A study of Mus musculus with 76 samples.

Results

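The genes described here are 8 members of the machinery by which a tumour and the cells within it hold back or start a T cell response: Ido1, the ligands Cd274 (PD-L1), Pdcd1lg2 (PD-L2), Cd80 and Cd86, the arginine-using enzymes Arg1 and Nos2, and the cytokine Tgfb1. They were chosen by symbol, and each was read from its probe set with the highest mean over all arrays, so they are 8 of the 18194 genes with a probe set that names 1 gene. The data are 76 tumours of C57BL/6 mice, each measured on 1 Affymetrix array, from a directed complementation model, in which a tumour first driven by an inducible oncogene is kept growing by a second gene. All groups share that history: the doxycycline-inducible HER2(V659E) oncogene started the tumour, doxycycline was withdrawn to silence it, and 1 of 13 genes was put in. The groups are named for the gene put in. They are the kinases MAP3K11 (MLK3), MAP3K7 (TAK1), RSK2, TNK2, FAK1 and PIP5K1B, and the receptors HER2, ErbB3, FGFR3, FGFR2aIIIb and FGFR2aIIIc, with RON+MSP (the receptor RON with its ligand) and RONd160 (another form of RON). FAK1 has 4 arrays and each other group 6. The 6 MAP3K11 tumours carry the label cachexia and the other 70 do not. The promoter that drove the introduced gene, and the age of the animals, are not given in the sources used here.

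Ido1 encodes indoleamine 2,3-dioxygenase, which opens the kynurenine pathway by breaking down tryptophan, and it is known as a target of interferon-gamma. Arg1 and Nos2 both consume arginine, Arg1 to give ornithine and urea and Nos2 to give nitric oxide, and in macrophages they are the usual marks of alternative and classical activation. Cd274 and Pdcd1lg2 bind the inhibitory receptor PD-1 on T cells, Cd80 and Cd86 on antigen-presenting cells bind the activating receptor CD28 and the inhibitory receptor CTLA-4, and Tgfb1 encodes the latent cytokine TGF-beta 1, which restrains T cells and acts on stroma.

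Values are on the log2 scale as deposited, so a difference of 1 is a doubling of signal, and the level of 1 probe set cannot be set against that of another. Control probe sets for a bacterial gene read 2.95, taken here as the background. Epithelial genes were read in the tumours, with Krt8 between 10.42 and 13.35 and Epcam between 6.70 and 7.71. Krt18 (5.22 to 13.48) and Cdh1 (3.73 to 8.91) ranged more widely, with the lowest Krt18 in ErbB3 and the lowest Cdh1 in MAP3K7. The tumours also held RNA of macrophages (Csf1r, 10.52 to 12.61), while Cd3e of T cells read 4.82 to 5.70. In such bulk tissue, fewer cells of a type and less RNA per cell cannot be told apart. Arrays of a group were not equally distant from each other. They were matched into 38 pairs, called a, b and c within a group, by the likeness of their chromosome profiles. The median r was 0.957 within pairs (0.473 in MAP3K11 pair c), against 0.161 for other arrays of the same group, a gap that the matching itself favours. The members of every pair carried different T labels (T1, T2 and T3, whose meaning is not stated). The labels do not say whether a pair shares an animal or a tumour line. The p-values that count arrays as replicates therefore stand beside those that keep the pairs as a random block, and they measure the spread between these arrays only.

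Ido1 passed the filter on low values only through RONd160 tumours, in which it is high, so its filtered tests stay out of these counts and it is described separately. By limma's moderated F test over the 13 groups, with arrays counted as replicates, the other 7 members all passed at an adjusted p under 0.05, and so did 85.9% of the 13868 genes tested. With the pairs as a block 4 of the 7 passed (Pdcd1lg2, Cd80, Arg1 and Tgfb1), against 54% of genes. The block adjusted p was 0.0518 for Cd274, 0.136 for Nos2 and 0.195 for Cd86. Over the 13 comparisons of 1 group with the other 12, each weighted equally, 14 of the 91 tests of these 7 were called (15.4%, against 17.9% over all genes), and 8 with the block (8.79% against 6.69%). The 14 calls lay in 5 groups: 6 in MAP3K11, 2 in RONd160, 3 in ErbB3, 2 in MAP3K7 and 1 in HER2. These comparisons share their arrays, since each group is also among the other 12 of every other comparison.

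In MAP3K11 tumours 6 members were called with either fit, where 54.2% of all genes were called with arrays as replicates and 39.3% with the block, so the count is to be read against a comparison in which most genes moved. Higher were Pdcd1lg2, Cd80, Cd274, Tgfb1 and Nos2 (5 of the 7, against 25% of genes called higher), and lower was Cd86 (1 of the 7, against 29.3%). In RONd160 tumours, beside Ido1, 2 of the 7 were called higher (23.3% of genes were called, 11.4% higher and 11.9% lower), Cd80 and Cd274, and 1 with the block (8.73% of genes), Cd80. In ErbB3 tumours 3 were called lower (28.6% of genes called, 15% higher and 13.6% lower), Arg1, Cd274 and Tgfb1, and 1 with the block (11.9%), Arg1. MAP3K7 (24.4%, block 7.9%) had Cd80 lower and Tgfb1 higher, and HER2 (26.6%, block 9.55%) had Cd274 lower, all without a call in the block.

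In the other 8 comparisons limma called 0 members. The shares of all genes called there were 1.62% in FGFR2aIIIc, 2.6% in FGFR3, 5.16% in TNK2, 8.42% in FAK1, 8.57% in RON+MSP, 11.9% in FGFR2aIIIb, 18.2% in RSK2 and 18.7% in PIP5K1B. At an unadjusted p under 0.05 there were, with Ido1 included, 4 members in TNK2, 3 in PIP5K1B, 0 in RON+MSP and 1 in each of the other 5. Between T labels, limma called 0% of genes for T2 against T1 and 0% for T3 against T1, with 0 and 1 members at an unadjusted p under 0.05.

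**Figure D1:**
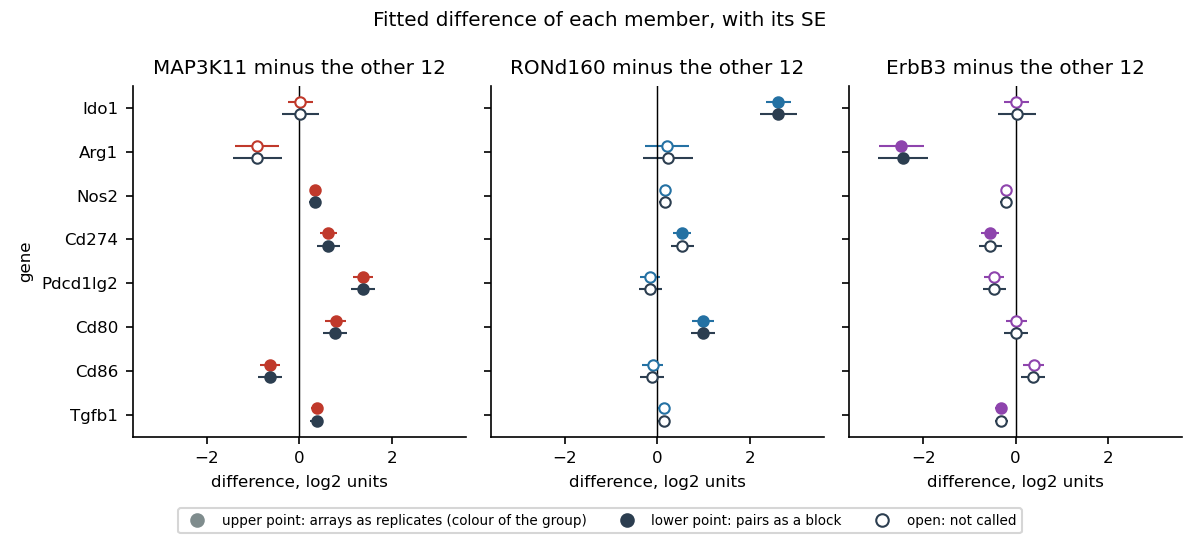
Fitted difference of each member between 1 group and the mean of the other 12 groups, in log2 units, in the panels for single groups. For each gene the upper point counts arrays as replicates and the lower point keeps pairs as a block, and bars are 1 SE; Ido1 in RONd160 (2.61) and Arg1 in ErbB3 (-2.47) lie farthest from 0.

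Ido1 (probe set 1420437_at; GRCm38.p6 chromosome 8, 24584133 to 24596952) was high in RONd160 tumours. Their 6 arrays read 7.70 and 8.14 in pair a, 6.01 and 6.19 in pair b, and 4.17 and 5.82 in pair c. Of these, 4 lay above all 70 arrays of the other groups, and the arrays of pair c did not. The next group was MAP3K7 at 4.05 ± 0.59 (SD, n = 6), against 6.34 ± 1.43 in RONd160, and this step of 2.29 was the only 1 of the 12 steps down the order of group means that exceeded the larger SD of both neighbours. Below it the means ran closely: MAP3K11 3.97 ± 0.47, ErbB3 3.97 ± 0.47, HER2 3.93 ± 0.50, RSK2 3.92 ± 1.04, TNK2 3.76 ± 0.47 and FGFR2aIIIc 3.75 ± 0.42. RON+MSP followed at 3.58 ± 0.34, then FGFR2aIIIb 3.57 ± 0.49, FGFR3 3.56 ± 0.19, FAK1 3.48 ± 0.27 and PIP5K1B 3.42 ± 0.36. The tumours with the full receptor and its ligand thus read between 3.23 and 4.18, with no array as high as 5 of the 6 RONd160 arrays.

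The fitted excess of Ido1 in RONd160 was 2.61 (SE 0.271) over the other 12 groups and 2.79 (SE 0.366) over RON+MSP, whose arrays lay near the control level. Ido1 exceeded the limit for testing, the 40th percentile of the array, in 5 of 6 RONd160 arrays and in 3 of the other 70. With no filter, where all 18194 genes were tested, limma gave these differences adjusted p-values of 2.6e-10 (18.3% of genes called) and 7.36e-07 (9.01% called). With no filter and the pairs as a block, a fit added after the data were seen, the adjusted p was 1.31e-06 (8.24% called) and 0.000682 (1.82% called). All groups share 1 estimate of the spread in these fits, so the p-values do not measure the wider spread among the RONd160 arrays (SD 1.43). Of the other 7 members limma called 0 between the RON groups with either fit, where 12.3% of genes were called and 1.45% with the block, and 1 of them, Cd80, had an unadjusted p under 0.05 (0.0311). Without pair a the difference from the other 12 groups fell to 1.82, and without pair c it was 3.29.

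Targets of interferon-gamma were measured beside Ido1. Of 15 tested genes of the interferon-gamma axis, 4 were higher and 0 lower in RONd160 (against 11.4% and 11.9% of all genes) and 3 were called with the block (against 8.73%), with a median difference of 0.27, where the median of all genes was 0.01. They were Cxcl10, a chemokine for T cells, at 2.00 (SE 0.421), Igtp at 1.43 (SE 0.324), Gbp3 at 1.15 (SE 0.299) and Gbp2 at 0.77 (SE 0.27), the latter 3 being GTPases of cell-autonomous defence. These 4 were named after their values were seen. Ifng itself was not tested, since its readings lay between 2.24 and 4.03 over all arrays. ErbB3 tumours, whose Ido1 was 3.97, had 8 of the 15 genes higher and 1 lower, against 15% and 13.6% of genes (3 called with the block, against 11.9%; median 0.50). Of the 11 tested genes downstream of or around Ido1 in the kynurenine pathway, 0 were higher and 2 lower in RONd160, the receptor Ahr at -0.56 (SE 0.177) and Afmid at -0.28 (SE 0.0725), neither with a call in the block. The mean of the T cell list, relative to each gene's mean over arrays, lay between -0.06 and 0.24 in RONd160 and between -0.42 and 0.64 elsewhere. The dendritic cell list lay between 0.05 and 0.57 against -0.77 to 0.95. The epithelial list lay between 0.18 and 0.77, with 20 of the other 70 arrays at or above its lowest value. Ido1 and that list had r = 0.36 and rho = 0.53 over 38 pair means, and r = 0.33 without RONd160 pairs a and b. These are given as a description, since Ido1 passed the filter only through RONd160 and read low elsewhere. The Ido1 difference was 2.67 (SE 0.274) with the T cell mean as a covariate, 2.74 (SE 0.273) with the macrophage mean and 2.58 (SE 0.277) with the muscle mean, and the part of epithelial cells in it was not tested.

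In MAP3K11 tumours Ido1 did not stand out, with a difference of 0.02, and its 6 arrays read 3.34 to 4.58. Of the 11 tested genes of its pathway, 5 were higher and 3 lower there, against 25% and 29.3% of all genes (5 called with the block, against 39.3%; median 0.11 against -0.01 over all genes). Kynu, which cleaves kynurenines, was higher by 0.78 (SE 0.166), Kmo, the kynurenine hydroxylase, by 0.76 (SE 0.172), and Ahr, a receptor for kynurenine, by 0.56 (SE 0.176). Wars, the tryptophanyl-tRNA synthetase, and the transaminase Kyat3 joined them among the genes with the highest F values. Wars was higher by 0.36 and Kyat3 was at -0.26, the latter with a block adjusted p of 0.13. In the interferon-gamma axis 2 of 15 were higher and 7 lower, against the same shares (9 called with the block, median -0.48). Gbp2 differed by -2.10 (SE 0.268), Cxcl10 by -1.63 (SE 0.418), Igtp by -1.05 (SE 0.322) and the transcription factor Irf1 by -0.83 (SE 0.105), while Ciita, which drives MHC class II genes, was higher by 0.95 (SE 0.133).

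**Figure D2:**
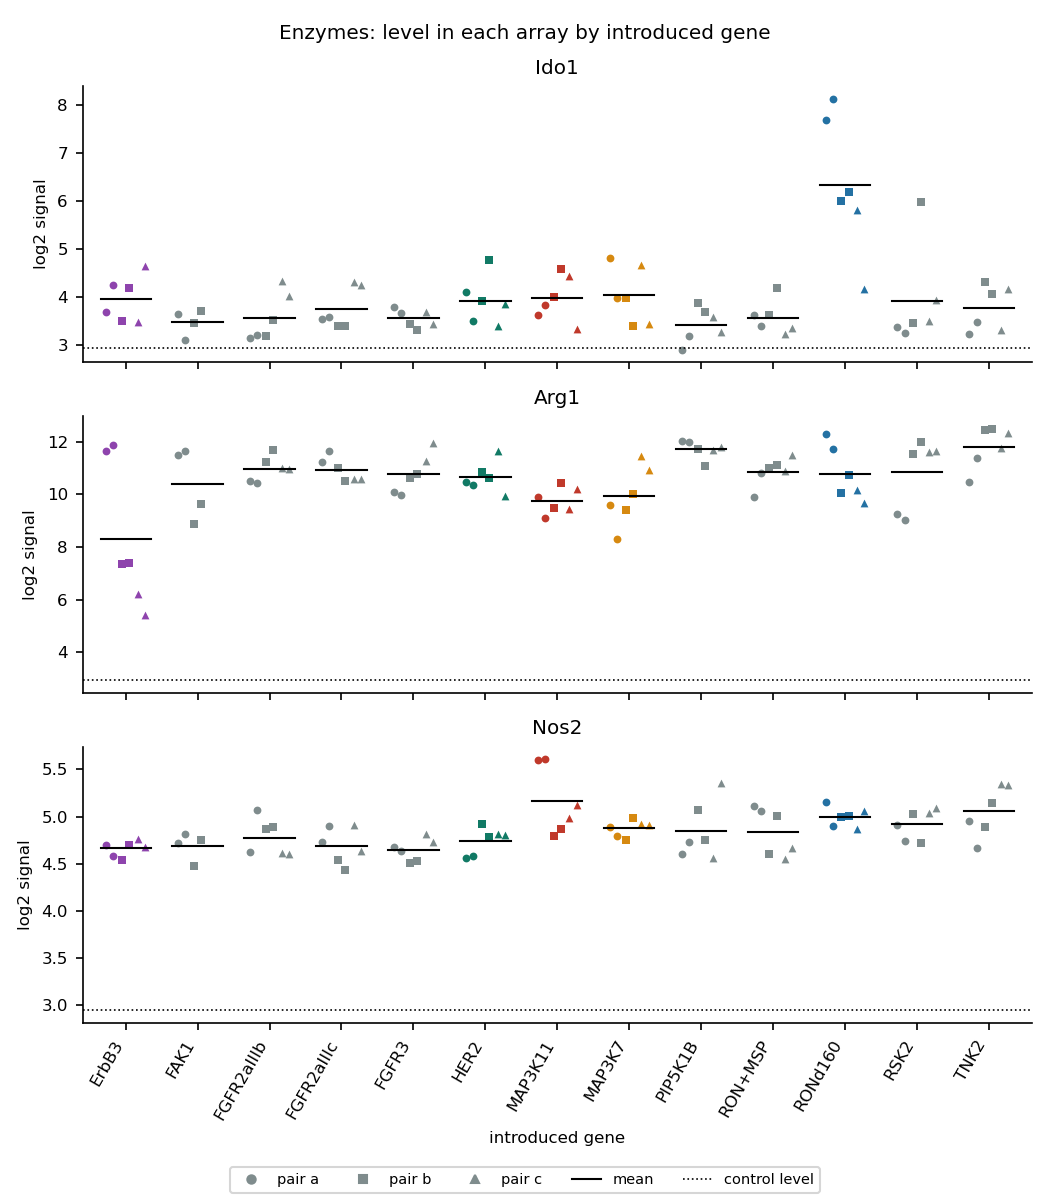
Level of Ido1, Arg1 and Nos2 in each of the 76 arrays (log2 signal) by introduced gene, with marker shape for the pair, a bar for the group mean and a dotted line for the control level of 2.95. Ido1 of RONd160 reaches 8.14, Arg1 of ErbB3 spans 5.42 to 11.89, and Nos2 stays between 4.44 and 5.61.

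Arg1 (1419549_at; chromosome 10, 24915207 to 24927470) was read well above the background in every array, from 5.42 to 12.48. It was highest in TNK2 (11.80 ± 0.79) and PIP5K1B (11.71 ± 0.34). The 6 groups that followed lay close together: FGFR2aIIIb 10.97 ± 0.46, FGFR2aIIIc 10.92 ± 0.46, RON+MSP 10.86 ± 0.53, RSK2 10.83 ± 1.33, FGFR3 10.79 ± 0.74 and RONd160 10.77 ± 1.03. HER2 had 10.64 ± 0.58 and FAK1 10.41 ± 1.38. Lowest were MAP3K7 with 9.95 ± 1.13, MAP3K11 with 9.75 ± 0.50 and ErbB3 with 8.31 ± 2.77. The step from PIP5K1B to FGFR2aIIIb was the only 1 of 12 beyond the larger SD of the neighbours. TNK2 (difference 1.31, SE 0.479, adjusted p = 0.0858) and PIP5K1B (1.20, SE 0.475, adjusted p = 0.0658) missed the threshold.

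The ErbB3 mean joined unlike tumours. Its arrays read 11.65 and 11.89 in pair a, 7.35 and 7.38 in pair b, and 5.42 and 6.20 in pair c. Pairs b and c lay below all 70 other arrays, while pair a lay above the series mean of 10.60. The fitted difference from the other 12 groups was -2.47 (SE 0.477, adjusted p = 7.82e-05 by limma, 0.00121 with the block and 0.0329 over pair means), a 5.53-fold lower signal. All groups share 1 estimate of the spread in these fits. The SE and p-values therefore do not measure the wider spread among the ErbB3 arrays (SD 2.77). The difference rested on the pairs: without pair c it was -1.16, with an adjusted p of 0.1. Macrophage markers were not lower in these tumours: 10 of 14 tested genes of the macrophage list were called higher and 0 lower, against 15% and 13.6% of genes (6 called with the block, against 11.9%), and the list mean lay between 0.15 and 0.91 against -1.16 to 0.97 in the other groups. Skeletal muscle genes ranged in ErbB3 from -2.21 to 3.96 on the same relative scale. The epithelial list was also highest in pair a, at 0.03 and 0.11, against -1.41 and -0.35 in pair b, and -1.22 and -0.48 in pair c. Unlike Arg1, it differed widely within pair b. Over all 38 pair means Arg1 and the epithelial list had r = 0.34 and rho = 0.07 (permutation p adjusted 0.142 and 0.788), and -0.04 without ErbB3 pairs b and c. The Arg1 difference was -2.93 (SE 0.494) with the macrophage mean as a covariate, -2.55 (SE 0.477) with the T cell mean and -2.76 (SE 0.484) with the muscle mean, and the part of epithelial cells was not tested. Over all 38 pairs Arg1 was among members that split more between pairs of a group (52.5% of the sum of squares) than between groups (42.3%).

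Nos2 (1420393_at; chromosome 11, 78920787 to 78960226), the inducible nitric oxide synthase, covered a narrow range, from 4.44 to 5.61, and exceeded the limit for testing in 46 of 76. MAP3K11 stood first with 5.16 ± 0.36, followed by TNK2 5.06 ± 0.27, RONd160 and RSK2, the latter with 4.92 ± 0.16. FGFR3 stood last with 4.65 ± 0.12, and no step in the order exceeded the larger SD. In MAP3K11 the arrays read 5.60 and 5.61 in pair a, 4.80 and 4.86 in pair b, and 4.99 and 5.12 in pair c, so the high values are those of 1 pair. The difference of 0.35 (SE 0.087) had adjusted p = 0.000576 by limma and 0.0251 with the block, but without pair a it was 0.13 with adjusted p = 0.279. Arg1 in MAP3K11 differed by -0.92 (SE 0.471), which was not called (adjusted p = 0.0944).

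Of 21 other tested genes of arginine and nitric oxide metabolism, 5 were higher and 5 lower in MAP3K11 (10 called, where 54.2% of all genes were, and 6 with the block, against 39.3%; median 0.09). Ornithine decarboxylase Odc1, which takes the product of arginase into polyamines, was higher by 0.90 (SE 0.088), and Azin1, which relieves its inhibition, by 0.87 (SE 0.101). Gatm, which uses arginine to make the creatine precursor, differed by -1.22 (SE 0.235), and Ddah2, of the family that degrades the NOS inhibitor dimethylarginine, by -0.90 (SE 0.0962). Odc1, Ddah2 and Azin1 also had the highest F values of the list over the 13 groups (13.5, 10.7 and 10.5), and 19 of 21 genes passed the F test, against 85.9% of all genes (11 with the block, against 54%). In RONd160 the list had 2 higher and 2 lower, against 11.4% and 11.9% of all genes. In ErbB3 it had 4 higher and 3 lower, against 15% and 13.6%.

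Genes of alternative macrophage activation are the usual companions of Arg1. In MAP3K11 4 of 11 tested were higher and 1 lower (5 called, where 54.2% of all genes were, and 3 with the block, against 39.3%; median 0.44). The chemokine Ccl24 was higher by 2.32 (SE 0.371), Retnla (FIZZ1) by 1.68 (SE 0.321) and the lectin Mgl2 by 1.03 (SE 0.327), with block adjusted p-values under the threshold for each. Mrc1, the mannose receptor, was among the 3 genes of the list with the highest F (4.39), beside Ccl24 (6.23) and Retnla (5.82). At the same time 7 of 14 tested macrophage markers were lower and 0 higher, against 29.3% and 25% of all genes. The list mean lay between -0.58 and -0.21 in MAP3K11 and between -1.16 and 0.97 elsewhere. Of 10 tested dendritic cell markers 6 were called, near the 54.2% of all genes, and all 6 were higher, against 25% of all genes.

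Cd274 and Pdcd1lg2 are neighbours on chromosome 19, at 29362107 to 29388095 and 29410919 to 29472927 of GRCm38.p6, with 22823 bases and no other annotated gene between them. They are shown with Cd80, since each of these ligands was called higher in MAP3K11 tumours, though not in the same pairs. Tgfb1, also called higher there, is described by its matches only. RefSeq promoter windows on this assembly were given for 4 of the 8 members (Cd274, Pdcd1lg2, Cd80 and Tgfb1), each for 1 annotated start, which for Cd274 and Cd80 lies inside the gene's span. The 250 bases before the start are printed 5′ to 3′ on the plus strand, with matches to the searched motifs in capitals. They lie at chr19:29367188-29367437 for Cd274, chr19:29410669-29410918 for Pdcd1lg2 and chr16:38458683-38458932 for Cd80.
Cd274: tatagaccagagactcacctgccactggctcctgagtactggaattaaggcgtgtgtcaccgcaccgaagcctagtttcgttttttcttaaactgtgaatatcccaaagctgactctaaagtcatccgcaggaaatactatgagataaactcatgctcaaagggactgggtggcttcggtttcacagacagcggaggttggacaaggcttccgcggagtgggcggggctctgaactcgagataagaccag
Pdcd1lg2: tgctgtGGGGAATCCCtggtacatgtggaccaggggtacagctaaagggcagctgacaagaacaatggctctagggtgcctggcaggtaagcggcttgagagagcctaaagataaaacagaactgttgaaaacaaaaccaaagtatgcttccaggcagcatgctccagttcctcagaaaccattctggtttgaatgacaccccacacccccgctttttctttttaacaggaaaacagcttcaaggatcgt
Cd80: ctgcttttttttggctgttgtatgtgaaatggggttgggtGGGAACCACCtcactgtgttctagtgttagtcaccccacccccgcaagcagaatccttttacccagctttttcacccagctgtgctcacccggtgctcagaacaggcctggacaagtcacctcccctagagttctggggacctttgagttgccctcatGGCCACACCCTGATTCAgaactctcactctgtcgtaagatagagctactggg

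The motifs, searched on both strands in windows from 250 bases before to 50 after the start, were the gamma-activated site (TTCNNNGAA), the core of the interferon-stimulated response element (GAAA, any 2 bases, GAAA), the AP-1 site (TGANTCA) and the kappa B core (GGG, any 5 bases, CC). Overlapping matches were all counted. Of 32851 RefSeq promoters, 8.30% hold the first, 3.44% the second, 7.81% the third and 50.8% the fourth. Pdcd1lg2 has 1 kappa B match, GGGGAATCCC, 244 bases before its start. Cd80 has kappa B matches GGGAACCACC and GGCCACACCC at 210 and 52 bases before the start, the latter directly followed by the AP-1 match TGATTCA at 42 bases. Cd274 has no match in its window, and Tgfb1 has 8 kappa B matches, some overlapping, and none of the other motifs. The kappa B core is common, and a match says only that these letters are present.

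Pdcd1lg2 (1450290_at) was highest in MAP3K11. Its arrays read 5.65 and 6.10 in pair a, 6.47 and 6.48 in pair b, and 6.31 and 6.62 in pair c, for a mean of 6.27 ± 0.35. All 6 lay above the mean of the other 12 groups, and none lay above every other array, because MAP3K7 pair b read 6.35 and 7.14 and the FGFR2aIIIb arrays reached 6.89. The group means then fell from FGFR2aIIIb 5.48 ± 0.84 through MAP3K7 5.26 ± 1.19 and FGFR2aIIIc 5.11 ± 0.60 to FAK1 4.91 ± 0.18. The remaining 8 groups lay between RONd160 at 4.86 ± 0.30 and ErbB3 at 4.59 ± 0.21, and no step in the order exceeded the larger SD. The fitted difference of MAP3K11 from the other 12 groups was 1.38 (SE 0.214), 2.59-fold, with adjusted p = 1.54e-07 by limma, 1.17e-05 with the block and 0.000812 over pair means. It held in direction and call under all 20 alternatives tried, between 1.14 and 1.59. No other probe set of Pdcd1lg2 was there to try. The gene exceeded the limit for testing in all 6 MAP3K11 arrays but in only 38 of the 76.

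Cd274 (1419714_at) was highest in MAP3K11 and RONd160 and lowest in HER2 and ErbB3. MAP3K11 arrays read 6.39 and 6.40, 6.68 and 6.76, and 6.91 and 7.42 in pairs a, b and c (mean 6.76 ± 0.38). RONd160 arrays read 7.11 and 7.51, 6.57 and 6.61, and 5.98 and 6.11 (6.65 ± 0.58). The order went on with TNK2 6.49 ± 0.36, RSK2 6.32 ± 0.66, RON+MSP 6.30 ± 0.34, FAK1 6.11 ± 0.17 and PIP5K1B 6.09 ± 0.18, so neighbours differed by less than their spread throughout. FGFR3 had 6.08 ± 0.70, FGFR2aIIIb 6.05 ± 0.47, FGFR2aIIIc 5.96 ± 0.20 and MAP3K7 5.95 ± 0.48. At the low end ErbB3 read 5.97 and 6.10, 5.68 and 6.63, and 4.71 and 5.07 (5.69 ± 0.70), and HER2 5.92 and 6.06, 5.57 and 5.62, and 5.25 and 5.62 (5.67 ± 0.29). In both groups pair c held the lowest array.

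MAP3K11 exceeded the other 12 groups in Cd274 by 0.63 (SE 0.19), 1.55-fold, with adjusted p = 0.00398 by limma and 0.0338 with the block, and 0.0564 over pair means. Without pair c the difference was 0.46 with adjusted p = 0.092. The RONd160 difference of 0.53 (SE 0.191, adjusted p = 0.0334) was lost with the block (0.17), and without pair a it was 0.22. ErbB3 (-0.56, SE 0.192, adjusted p = 0.0223) and HER2 (-0.55, SE 0.19, adjusted p = 0.0257) were lost with the block as well, at 0.143 and 0.15, and ErbB3 without pair c was -0.12.

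**Figure D3:**
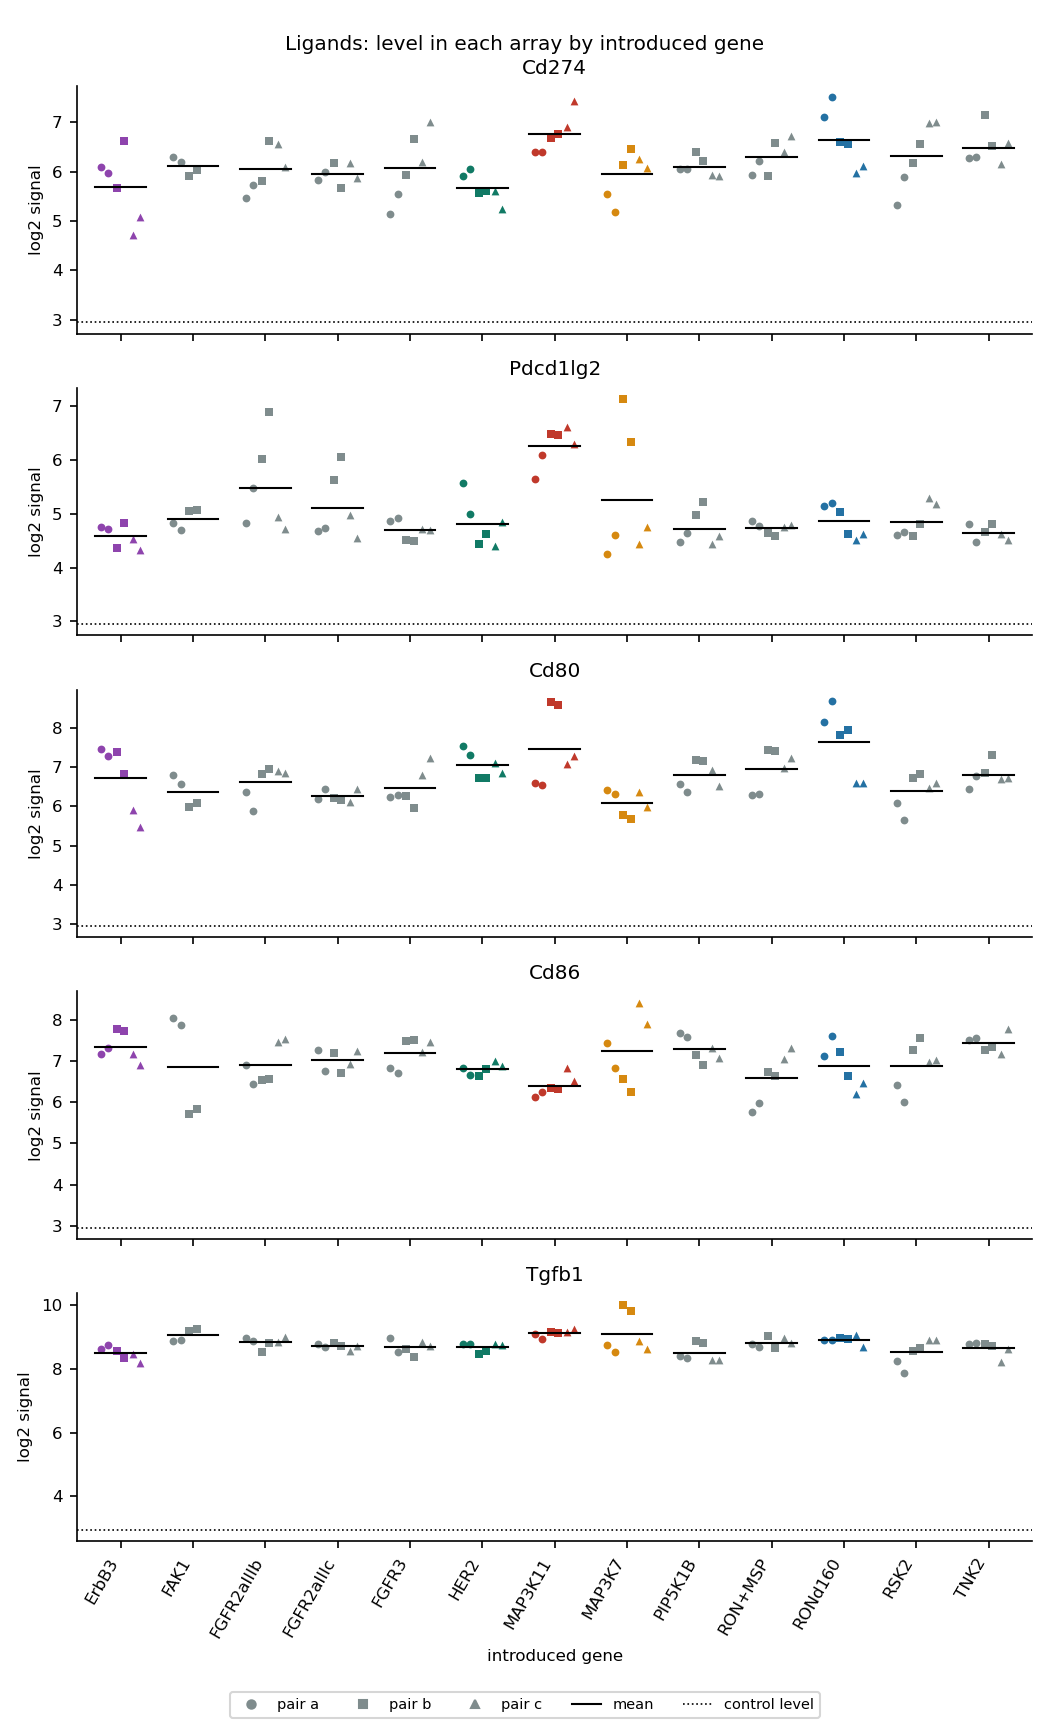
Level of Cd274, Pdcd1lg2, Cd80, Cd86 and Tgfb1 in each of the 76 arrays (log2 signal) by introduced gene, with marker shape for the pair and a bar for the group mean. In Pdcd1lg2 all 6 MAP3K11 arrays lie between 5.65 and 6.62, and MAP3K7 pair b (6.35 and 7.14) lies in or above that range.

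Cd80 (1451950_a_at; chromosome 16, 38457430 to 38495958) was highest in RONd160, whose arrays read 8.17 and 8.70, 7.83 and 7.95, and 6.59 and 6.61 in pairs a, b and c (7.64 ± 0.86). MAP3K11 read 6.54 and 6.60, 8.59 and 8.66, and 7.08 and 7.30 (7.46 ± 0.95). In both groups 1 pair read below the series mean of 6.75. HER2 7.05 ± 0.34, RON+MSP 6.95 ± 0.53, TNK2 6.80 ± 0.28, PIP5K1B 6.80 ± 0.35 and ErbB3 6.73 ± 0.85 formed the middle, with FGFR2aIIIb 6.63 ± 0.42 and FGFR3 6.47 ± 0.47 next. RSK2 6.40 ± 0.44, FAK1 6.37 ± 0.39, FGFR2aIIIc 6.26 ± 0.15 and MAP3K7 6.09 ± 0.32 were lowest. No step exceeded the larger SD of its neighbours.

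For RONd160 the Cd80 difference was 0.98 (SE 0.232), 1.98-fold, with adjusted p = 0.00114 by limma and 0.00984 with the block; without pair a it was 0.58 with adjusted p = 0.107. For MAP3K11 it was 0.78 (SE 0.231), 1.72-fold, with adjusted p = 0.00315 and 0.0119 with the block, and without pair b 0.20 with adjusted p = 0.528. Over pair means neither was called (adjusted p = 0.0851 and 0.0723). MAP3K7, whose arrays ran from 5.67 to 6.41, differed by -0.70 (adjusted p = 0.0213, block 0.0806). A pair of the other Cd80 probe sets, 1427717_at and 1432826_a_at, followed the one used (r = 0.939 and 0.908 over 76 arrays, which include paired arrays), and in MAP3K11 they differed by 0.96 and 1.93. The last, 1454372_at, averaged 3.62 and had r = 0.068 with it; its MAP3K11 difference was 0.36, and it turned the sign in RONd160 to -0.06 and in MAP3K7 to 0.06.

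Cd86 (1449858_at; chromosome 16, 36568956 to 36666158) was lowest in MAP3K11, at 6.12 and 6.26, 6.31 and 6.36, and 6.52 and 6.84 in pairs a, b and c (6.40 ± 0.25). Above it came RON+MSP 6.59 ± 0.60, HER2 6.80 ± 0.13 and FAK1 6.87 ± 1.27, the last with 4 arrays from 5.71 to 8.04. RONd160 and RSK2 (6.88 each), FGFR2aIIIb 6.91 ± 0.49, FGFR2aIIIc 7.02 ± 0.26, FGFR3 7.21 ± 0.36, MAP3K7 7.24 ± 0.84, PIP5K1B 7.29 ± 0.30 and ErbB3 7.35 ± 0.34 led up to TNK2 at 7.44 ± 0.22. No neighbours differed by more than the larger SD. The MAP3K11 difference was -0.64 (SE 0.22, adjusted p = 0.0116 by limma, 0.0421 with the block, 0.116 over pair means).

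This difference was that of 1 probe set. The other Cd86 probe set, 1420404_at, read 7.02 ± 0.26 in MAP3K11 and differed from the other 12 groups by 0.08 (adjusted p = 0.729), although both followed each other over the series (r = 0.829). The probe set used minus the other was -0.77 to -0.40 in MAP3K11 (median -0.63), while in the other 70 arrays it ran from -0.83 to 0.52 (median 0.14) and reached the MAP3K11 range in 2 arrays. Cd86 also followed the macrophage markers: over 38 pair means it had Pearson r = 0.91 and Spearman rho = 0.91 with the list mean (permutation p = 1e-05, the smallest the permutations can give, adjusted 0.00048 over 96 relations), 0.89 without the 2 farthest pairs, and 0.92 within groups. That family of relations, each member against each marker list, was added after the data were seen. Cd86 also had r = 0.70 with the interferon-gamma axis and 0.60 with the NK and cytotoxic list. With the macrophage mean as a covariate, the MAP3K11 difference in Cd86 was -0.13 with an adjusted p of 0.318 by limma.

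**Figure D4:**
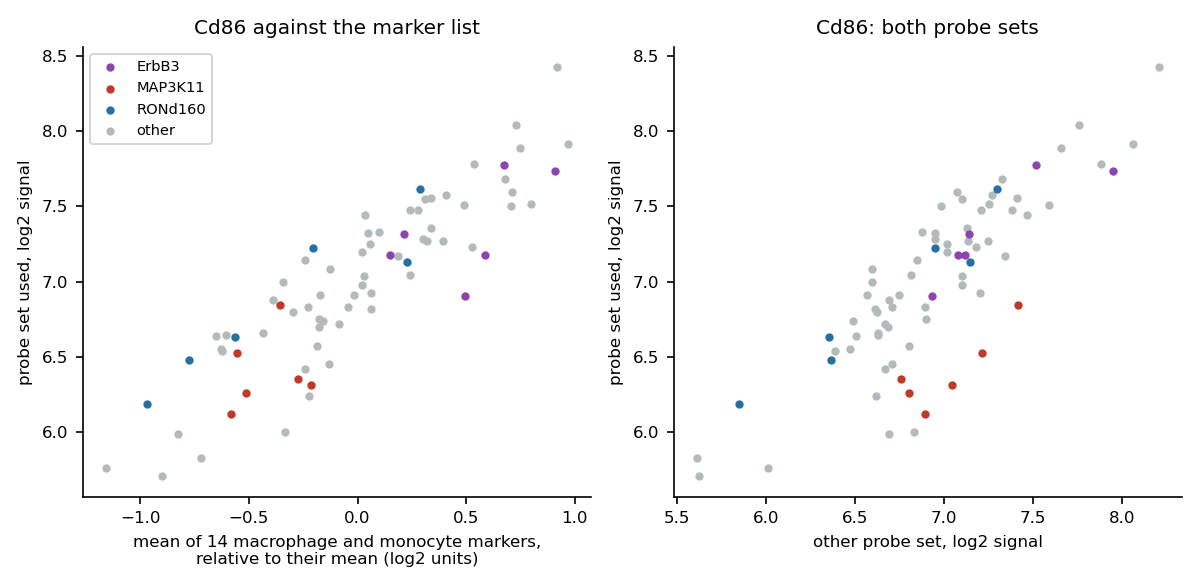
Level of the Cd86 probe set used (log2 signal) in each array, against the other Cd86 probe set in one panel and against the mean of the macrophage list, relative to each gene's mean, in the other. The MAP3K11 arrays, at 6.12 to 6.84 on the vertical axis, lie below most other arrays of the same level in the other probe set.

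Tgfb1 (1420653_at; chromosome 7, 25687002 to 25705077) was even over the MAP3K11 tumours, where the arrays read 8.94 and 9.11, 9.12 and 9.18, and 9.18 and 9.25 (9.13 ± 0.10). MAP3K7 had nearly the same mean (9.11 ± 0.65) from unlike pairs, 8.53 and 8.76, 9.84 and 10.03, and 8.62 and 8.88. FAK1 9.06 ± 0.20 and RONd160 8.92 ± 0.12 followed, and the rest descended without a step beyond the larger SD to RSK2 8.53 ± 0.40, PIP5K1B 8.51 ± 0.28 and ErbB3 8.49 ± 0.20. MAP3K11 exceeded the other 12 groups by 0.38 (SE 0.115), 1.30-fold, with adjusted p = 0.00445 by limma, 0.0248 with the block and 0.0697 over pair means. The MAP3K7 difference of 0.36 (adjusted p = 0.0183, block 0.1) came from pair b, and without it was -0.05. In ErbB3 the difference was -0.32 (SE 0.117, adjusted p = 0.0312, block 0.143). The second Tgfb1 probe set, 1445360_at (r = 0.554), gave 0.20 in MAP3K11 with an adjusted p of 0.0416.

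Of 22 other tested genes of the TGF-beta pathway, 7 were higher and 3 lower in MAP3K11 (10 called, against 54.2% of all genes, and 7 with the block, against 39.3%; median 0.02). Itgb8, part of an integrin that releases latent TGF-beta, differed by -2.34 (SE 0.307), Ltbp1, which holds the latent form in the matrix, by 1.19 (SE 0.159), and the signal transducer Smad3 by 0.58 (SE 0.138). Furin, the protease that cleaves the precursor, was higher by 0.26 (SE 0.0759). In RONd160 1 gene was higher and 6 lower, against 11.4% and 11.9% of genes (2 called with the block, against 8.73%), with Ltbp1 at -1.16 (SE 0.16). Over the 13 groups 21 of the 22 passed the F test with either fit (85.9% of all genes, block 54%), Ltbp1 (F = 10.03), Furin (8.88) and Tgfb3 (8.44) first.

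Pairs of groups were compared next. Between MAP3K11 and MAP3K7, both MAP kinase kinase kinases, 5 members were called (37.4% of genes; block 2, 21.6%). Cd80 was higher in MAP3K11 by 1.37 (SE 0.313, adjusted p = 0.000356 by limma, block 0.00267), with all 6 MAP3K11 arrays above every MAP3K7 array. Pdcd1lg2 was higher by 1.01 (SE 0.29, adjusted p = 0.00392, block 0.0272). That call ended without MAP3K7 pair a (0.60, adjusted p = 0.122) or pair c (0.68, adjusted p = 0.0941), and without MAP3K7 pair b the difference was 1.76. It ended too with the T cell covariate (adjusted p = 0.0579), over pair means (0.0872) and on the arrays of both groups alone (0.158). Cd274 (0.81), Nos2 (0.29) and Cd86 (-0.83) were called with arrays as replicates only, with block adjusted p-values of 0.0707, 0.256 and 0.0774. Against HER2, the gene of the first driver, 4 members were higher in MAP3K11 (49.2% of genes; block 2, 33.3%). Pdcd1lg2 differed by 1.46 (SE 0.29, block adjusted p = 0.000686), Cd274 by 1.09 (SE 0.257, adjusted p = 0.000341, block 0.00824), and Tgfb1 (0.45) and Nos2 (0.42) were lost with the block at 0.0613 and 0.0548. MAP3K7 against HER2 (36.5%; block 18.3%) gave Cd80 at -0.95 (adjusted p = 0.0133, block 0.0466) and Tgfb1 at 0.43 (adjusted p = 0.0265, block 0.107). FGFR2aIIIb against FGFR2aIIIc, splice forms of a receptor, gave 0 members by limma (0.166% of genes), with 0 at an unadjusted p under 0.05.

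Of 14 tested other ligands of T cell receptors, 5 were higher and 4 lower in MAP3K11 (9 called, where 54.2% of all genes were, and 7 with the block, against 39.3%). Cd276 (B7-H3), of the same family as Cd274, was higher by 1.24 (SE 0.173) and Pvr, a ligand of TIGIT, by 1.23 (SE 0.108), and Nectin3 by 0.83 (SE 0.157). Tnfsf9, the ligand of 4-1BB, differed by -0.78 (SE 0.147) and Cd47, which holds off phagocytosis, by -0.65 (SE 0.0709). Pvr (F = 16.4), Cd47 (10.9) and Tnfsf9 (8.99) had the highest F values of the list. Of the receptors on T cells, 9 were tested, 5 of them higher and 1 lower in MAP3K11 (6 called, against the same 54.2%, and 2 with the block, against 39.3%). Lag3, higher by 0.52 (SE 0.126), and Icos, higher by 0.45 (SE 0.102), kept a call, and Btla at 0.49 had a block adjusted p of 0.133. Pdcd1, which encodes PD-1, had its median over all arrays at or below the control level. By F the receptors Tnfrsf4, Btla and Tnfrsf9 came first (3.59, 3.51 and 3.31). With arrays as replicates 6 of the 9 passed the F test, against 85.9% of all genes, and 0 with the block, against 54%.

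Lists of cell type markers also differed in the MAP3K11 group, where 25% of all genes were called higher and 29.3% lower. On the relative scale the T cell list (5 of 10 on the array tested, 3 higher) lay between 0.29 and 0.54, with 3 of the other 70 arrays at or above its lowest value. The dendritic cell list (6 of 10 tested higher) lay between 0.37 and 0.95, with 4 of 70 at or above. Over 38 pair means Pdcd1lg2 and the T cell list had r = 0.49 and rho = 0.45 (permutation p adjusted 0.0298 and 0.0496 over the 96 relations), but 0.18 within groups. Cd274 and the dendritic cell list had r = 0.55 and rho = 0.59 (permutation p adjusted 0.00691 and 0.0064). Within groups r was 0.49, which did not pass (permutation p adjusted 0.219). Cd80 and the epithelial list had r = 0.56 and rho = 0.55 (permutation p adjusted 0.00691 and 0.0112). Within groups r was 0.43, which did not pass either (permutation p adjusted 0.351). Without the 2 farthest pairs the r of these relations over pair means was 0.39, 0.55 and 0.50, in the order given. The part of dendritic and epithelial cells in the differences was not tested. Epithelial genes lay between 0.42 and 0.94, fibroblast genes between 0.35 and 0.74 and skeletal muscle genes between -2.74 and -2.37. With the T cell mean as a covariate 2 members kept their call in MAP3K11, Pdcd1lg2 and Cd80, and the T cell list itself was led by Thy1 (1.58, SE 0.205), which fibroblasts also express. With the macrophage mean 5 were called and with the muscle mean 6. The share of all genes called in these covariate fits was not computed, so a general loss of calls cannot be told from one of the members.

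Over 38 pair means, 28 relations between members were computed, and 6 had an adjusted permutation p under 0.05. These include Ido1 with Cd80, which is given below as a description only, since Ido1 passed the filter only through RONd160. Pdcd1lg2 and Tgfb1 were the closest, with r = 0.67 and rho = 0.73 (permutation p adjusted 0.00056), 0.49 without MAP3K11 pair b and MAP3K7 pair b, and 0.65 within groups (adjusted 0.0535). Cd274 and Cd80 had r = 0.59 and rho = 0.51 (permutation p adjusted 0.0021), 0.44 without the 2 farthest pairs and 0.61 within groups. The neighbours Cd274 and Pdcd1lg2 had r = 0.38 and rho = 0.41 (permutation p adjusted 0.0693 and 0.0494). Ido1 and Cd80 had r = 0.55 and rho = 0.38, 0.23 without RONd160 pairs a and b, and 0.55 within groups. Cd274 and Arg1 had r = 0.49 and rho = 0.36, 0.26 without ErbB3 pair c and RONd160 pair a, and 0.64 within groups (permutation p adjusted 0.0358). Over all groups both relations rested on the pairs left out. Cd274 and Tgfb1 (r = 0.42, rho = 0.48) and Pdcd1lg2 and Cd86 (r = -0.44, rho = -0.47) were at 0.36 and -0.36 without the 2 farthest pairs, and at 0.44 and -0.36 within groups, where neither had an adjusted p under 0.05. All pairs of tumours share 1 array type and normalization, and groups differ in cell content.

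The variation of the members lay mostly between pairs of a group or between groups, and little within pairs. Since the pairs were matched on the likeness of these same arrays, a small share within pairs is partly built in. Cd86 had 64.3% of its sum of squares between pairs of a group and 28.2% between groups, Ido1 60.9% between groups and 24.5% between pairs. Pdcd1lg2 (48.6%), Cd80 (43.6%), Arg1 (42.3%), Tgfb1 (42.3%), Nos2 (40.6%) and Cd274 (36.4%) lay between them in the share between groups. Within pairs the share ran from 4.19% in Cd80 to 20.9% in Nos2.

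The genes most like each member over the 38 pair means, by Pearson r and given as a description, differed between the members. Cd86 had the closest, Fcer1g (r = 0.92), Trem2 (0.92) and Tlr2 (0.91), which encode myeloid receptors and their adaptor. Arg1 came with Tfec (0.81), Pygl (0.80) and Trem1 (0.79), and Cd274 with Ppp1r3b (0.79), Clec7a (0.78) and Pilrb1 (0.78). Pdcd1lg2 came with Khdrbs2 (0.81), Chd7 (0.80) and Lrrc10b (0.80), and Tgfb1 with Camk2n1 (0.83), Zfpm1 (0.82) and Nes (0.81). Nos2 came with Pth2 (0.80), Atp2b3 (0.76) and Fry (0.75). The nearest to Ido1 was Usp17la (0.85, but a Spearman rho of 0.39), then Arhgef19 (0.75) and BC023105 (0.75), and Cd80 had no gene above 0.68 (Mob3a 0.68, Snx12 0.66, Stx7 0.66).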

How the data were processed

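Per the labels, biotinylated cRNA from Qiagen RNeasy total RNA was put on Affymetrix arrays. The authors deposited log2 values, 1 for each of 45101 probe sets and 76 arrays, from 1.77 to 14.18. Per the submitters' processing notes affy was used (no version), and how it normalized the arrays is not stated in the sources used here. Array medians lay between 5.45 and 5.56, and the values were used as deposited. The number of arrays limits the precision.

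Of the probe sets, 34958 name 1 gene, 932 several and 9211 none here; names and positions are those of GRCm38.p6. A gene's probe set of highest mean stands for it. It was tested if above the 40th percentile of its array (4.68 to 4.86) in at least 4 arrays, which left 13868 of 18194 genes. All arrays were fitted with limma 3.58.1 (R 4.3.3, statmod 1.5.0, data.table version 1.17.8), with introduced gene and T label as terms and 61 residual degrees of freedom. Tests were two-sided and Benjamini-Hochberg adjusted over all genes tested, and called under 0.05. All groups share 1 estimate of a gene's spread, so a p-value does not measure the spread of a single group. Differences hold the T label fixed and can depart slightly from differences of means. Arrays of a group were matched into 38 pairs on the medians of 19 autosomes. Pairs were a random block (duplicateCorrelation, 0.628) or were averaged (25 residual degrees of freedom). Correlations used 100000 permutations in Python 3.11.15 with numpy 2.4.6, pandas 2.3.3 and scipy 1.17.1. The fits were tested on simulated data.

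All 8 members are named. Of each list of pathway genes, up to 3 called genes with the largest difference in MAP3K11 and up to 3 with the largest F are named, and for each member the 3 genes most like it, unless the text says otherwise. Members and lists were chosen with earlier results of these data known. Alternatives changed the block, pairs, T term, replicate number, filter, normalization, probe set, prior, weights, threshold, cell-content covariates and arrays left out. The gene named in the title of the series is left out here.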

Additional observations from a re-analysis of the deposited data

Results flagged for a closer look

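Among the 8 members in 13 groups, 3 combinations held an array far from the others of its group, where chance flags about 1 in 20. Ido1 read 5.99 in RSK2 T2 replicate 3, against 3.26 to 3.94 in the other RSK2 arrays and 3.46 in the array paired with it. Arg1 read 11.07 in PIP5K1B T3 replicate 1, against 11.69 to 12.01 in the others and 11.73 in its paired array. Tgfb1 read 8.22 in TNK2 T1 replicate 3, against 8.62 to 8.82, with 8.62 in its paired array.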

How the results depend on the processing

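The treatment of paired arrays changed the counts of calls. With the pairs as a block and Ido1 left out, members called among the 13 groups went from 7 to 4. Calls over the 13 comparisons of a group with the others went from 14 to 8. The counts that follow include Ido1, which passed the filter only through RONd160. With the block they went from 8 to 5, from 15 to 9, and over the 5 comparisons of group pairs from 12 to 6, while MAP3K11 kept 6. With the pairs as a block and no filter, which was added after the data were seen, they were 6, 9, 7 and 6. With pair means as samples these became 1, 4 and 5, and 2 in MAP3K11, and the smaller number of samples is part of that construction. The T cell covariate gave 2 members in MAP3K11 and 6 calls over the group pairs. Array weights gave 23 calls over the 13 comparisons, and an adjusted p under 0.01 gave 8 there and 7 over the group pairs. Leaving out each pair in turn gave 7 to 8 members among groups, 4 to 7 in MAP3K11, 13 to 20 calls over the 13 comparisons, 9 to 12 over the group pairs and 0 to 0 between T labels. The share of all genes called was not computed for pair means, covariates, weights, the stricter threshold, arrays left out or the replicate number. The replicate number as a block gave 8 members among groups, 6 in MAP3K11, 15, 11 and 0 calls; arrays of different groups with the same number did not resemble each other (median r -0.0018, against -0.0044), so they share only a number.

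Signs turned in Tgfb1 for MAP3K7 without pair b (-0.053; 0.595 without pair a), in Cd86 for MAP3K11 with probe set 1420404_at (0.082), and in Cd80 with probe set 1454372_at for RONd160 (-0.06), for MAP3K7 (0.06) and for MAP3K7 against HER2 (0.084). Of the 28 correlations between members, 6 were called by Pearson's r, 6 by Spearman's rho and 4 within groups, but not the same ones. The 28 include those of Ido1, which passed the filter only through RONd160. By rho, Ido1 with Cd80 and Cd274 with Arg1 were lost (permutation p adjusted 0.0731 and 0.0763). Cd86 with Arg1 (rho = 0.55, permutation p adjusted 0.00742) and Cd274 with Pdcd1lg2 entered. Within groups Cd80 with Arg1 entered (r = 0.58, permutation p adjusted 0.0358). Quantile normalization, median centring, the T term and the variance prior left the 37 member results followed here on their side of the threshold. Quantile normalization and median centring each gave 16 calls over the 13 comparisons, against 15, so a difference outside those 37 crossed it. The named genes of the lists were not followed. The cause of these changes was not tested. Signals near the control level, as in Ido1 outside RONd160, limit what can be read from their order.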
